A study of Mus musculus with 10 samples.

Results

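Thrombospondins and other matricellular proteins were followed in the calf muscle of mice fed with or without L-carnitine. The genes were Thbs1, Thbs2, Thbs3 and Thbs4, the periostin gene Postn, Sparc, Sparcl1, the tenascin C gene Tnc and the osteopontin gene Spp1, a list of 9. A gene was taken where the platform annotation gives a probe set exactly 1 symbol and that symbol is on the list, and this found 8 of the 9, among 22180 genes in all. Each of the 8 had 1 such probe set. Spp1 was matched to none, so its expression is not analysed here.

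The muscle was the gastrocnemius of male NMRI mice, an outbred stock, hybridised to Affymetrix Mouse Gene 2.0 ST arrays. Control mice (n = 5) ate a basal diet with under 5 mg of carnitine per kg, and carnitine mice (n = 5) ate that diet with 1000 mg of L-carnitine added per kg. All were caged in groups of 5 from the age of 3 weeks, and they were killed at 9, 15 or 18 months. The age and the cage of each array mouse were not stated in the labels, so age or cage and diet cannot be told apart. Values are RMA log2 values, and every difference is carnitine minus control.

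Matricellular proteins are secreted into the extracellular matrix but do little to build it. They bind collagens, growth factors, proteases and cell surface receptors, and many are made in growth, injury and mechanical load. Thrombospondins fall into a trimeric subgroup (Thbs1 and Thbs2), whose type 1 repeats bind the receptor CD36, and a pentameric subgroup (Thbs3, Thbs4 and Comp). In muscle they are made by fibroblasts, vessel and tendon cells and, for some members, muscle fibres.

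Upstream sequence in RefSeq's promoter table (GRCm38.p6) was matched for 7 of the 9 genes, in 10 windows. Spp1 is among the 7, while Thbs1 and Sparcl1 had no window. Printed here are the 250 bases before the start site of Thbs4, Postn (the second of its start sites in the table), Sparc and Tnc, the first 3 as members with an unadjusted p below 0.05 and Tnc as a member without. They are written 5′ to 3′ along the gene's strand, and capitals mark matches on either strand to any of 7 motifs. These were the TATA box with the letters TATAAA, the CCAAT box, the GC box with the letters GGGCGG, the AP-1 motif with the letters TGANTCA, the SMAD motif with the letters CAGAC, the TEAD motif with the letters GGAATG, and the CArG box by its name. Thbs4 lies at chr13:92794819-92795068 (minus strand), Postn at chr3:54360857-54361106 (plus), Sparc at chr11:55420081-55420330 (minus) and Tnc at chr4:64047016-64047265 (minus).
Thbs4: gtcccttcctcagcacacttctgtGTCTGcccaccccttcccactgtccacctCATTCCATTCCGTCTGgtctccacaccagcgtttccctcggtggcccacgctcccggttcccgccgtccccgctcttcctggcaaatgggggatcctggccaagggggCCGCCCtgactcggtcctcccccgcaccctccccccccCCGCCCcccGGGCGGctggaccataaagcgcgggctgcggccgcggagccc
Postn: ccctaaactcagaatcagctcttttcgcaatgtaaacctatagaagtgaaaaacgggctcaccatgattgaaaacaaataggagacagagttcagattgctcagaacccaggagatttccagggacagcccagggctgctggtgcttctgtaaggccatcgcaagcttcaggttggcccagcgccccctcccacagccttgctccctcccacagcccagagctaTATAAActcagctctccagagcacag
Sparc: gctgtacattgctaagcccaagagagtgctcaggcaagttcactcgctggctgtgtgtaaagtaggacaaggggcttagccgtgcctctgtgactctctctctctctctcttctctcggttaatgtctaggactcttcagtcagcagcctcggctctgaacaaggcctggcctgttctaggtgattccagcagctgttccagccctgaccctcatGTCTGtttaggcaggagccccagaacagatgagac
Tnc: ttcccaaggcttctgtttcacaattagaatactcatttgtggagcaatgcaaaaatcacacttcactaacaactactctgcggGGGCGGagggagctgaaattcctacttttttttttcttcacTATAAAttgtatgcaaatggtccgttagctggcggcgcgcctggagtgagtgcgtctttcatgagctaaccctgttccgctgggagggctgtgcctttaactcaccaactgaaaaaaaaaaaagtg

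The Thbs4 window held 3 GC boxes, starting at -89, -51 and -42 from the start site, 2 SMAD matches and 2 TEAD matches that overlap by their shared end base, and its GC content was 70.8% against a median of 52.4% over all windows. The Postn window held a TATA box starting at -26, the Sparc window 1 SMAD match at -35, and the Tnc window a TATA box at -126 and a GC box at -167. Over all 32851 windows of that length, 12.4% held a TATA box match, 33.8% CCAAT, 32.7% a GC box, 6.75% AP-1, 42.2% SMAD, 12.6% TEAD and 1.47% a CArG box. Of the 10 windows of members, 7 held a SMAD match, 5 a TATA box, 4 a GC box, 3 CCAAT and 1 a TEAD match. The Tnc windows overlap each other, so the same TATA box and the same GC box are counted in both. The TATA boxes of Thbs2 and Spp1 started at -126 and -211. The Postn and Tnc windows not printed each held 1 SMAD match, at -191 and -70. No window of the members held an AP-1 or CArG match, which says only that these letters are not in these 250 bases.

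All arrays but control replicate 5 were broadly alike. The interquartile range ran from 2.39 to 2.59 on 9 arrays and was 2.20 on control replicate 5. That array also had the highest median (5.96 against 5.72 to 5.86). Its mean correlation with the other arrays was the lowest (0.978 against 0.987 to 0.990). The tissue label was checked on 12 muscle fibre genes, such as Acta1, Ckm and Myh4, whose mean levels of 12.38 to 13.82 lay far above the median probe set level of 5.80.

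All 8 measured members averaged higher in carnitine than in control muscle, by 0.02 to 0.48 on the log2 scale, with a median of 0.25. A positive difference was found in 47.5% of all genes, whose median difference was -0.01, and in 62.5% of the 12929 genes with a mean above the median probe set level, where all 8 members lie and the median difference was 0.04. The thrombospondin genes Thbs1 and Thbs4, Postn, Sparc and Sparcl1 had an unadjusted p below 0.05 in limma, that is 5 of 8, against 3.14% of all genes on the higher side (4.79% of the brighter genes). The members were chosen with earlier results of these data known and share the same arrays, so that contrast is a description and was not tested. None of the 8 passed an adjusted p of 0.05 in limma, nor did any of the 22180 genes (0%), of which 1546 had an unadjusted p below 0.05. The diets did not separate completely in any member, whereas all 5 carnitine mice lay above every control in 0.505% of all genes. In bulk muscle RNA, more cells of a type and more RNA per cell cannot be told apart.

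**Figure D1:**
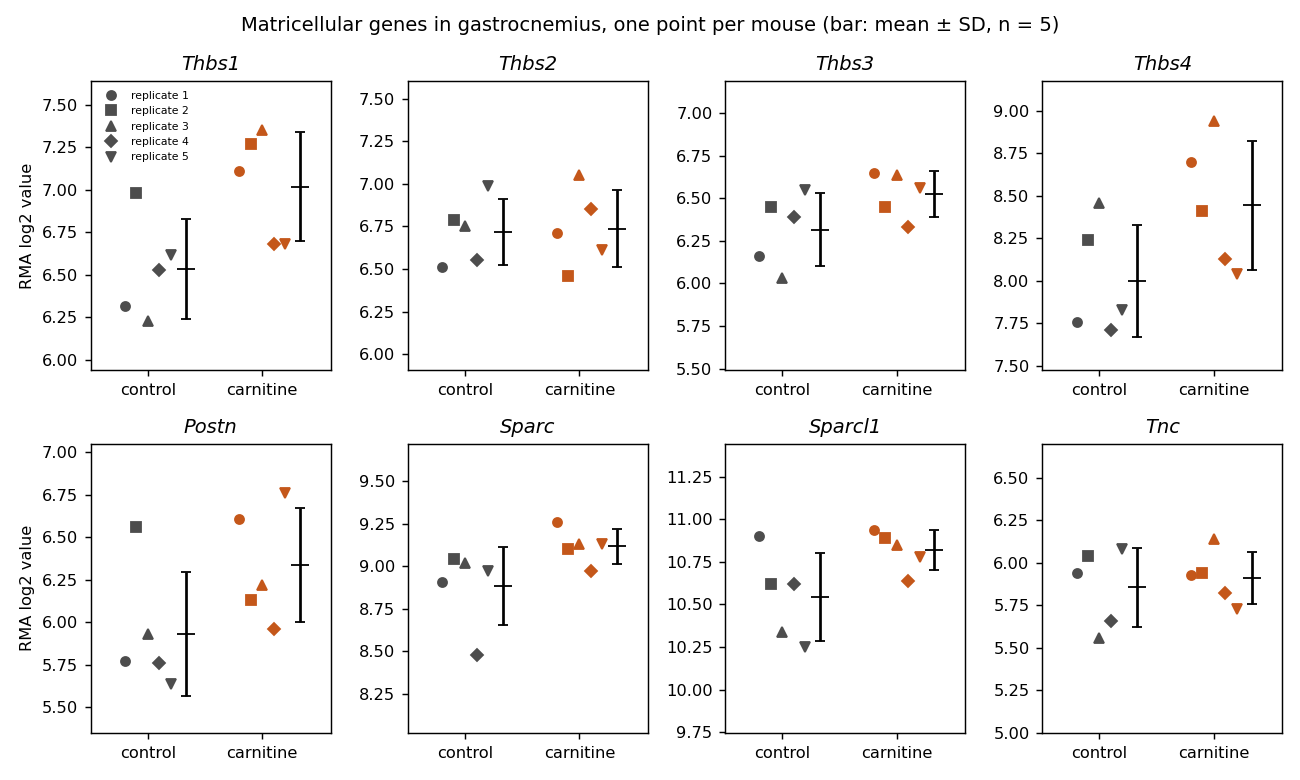
RMA log2 values of the 8 measured genes, 1 panel per gene, with 1 point per mouse (grey control, orange carnitine, marker shape by replicate number) and the mean ± SD of 5 mice beside each group; all panels span the same number of log2 units. The groups overlap in each panel; in Thbs1, Postn and Sparcl1 4 controls lie below every carnitine mouse, and in Thbs2 the means are 6.72 and 6.74.

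Thbs1 encodes thrombospondin 1, which blocks vessel growth through CD36 and CD47 and can activate latent TGF-beta. The control mice, replicates 1 to 5, had log2 values of 6.32, 6.98, 6.23, 6.53 and 6.62. The carnitine mice had 7.11, 7.27, 7.35, 6.68 and 6.68. Carnitine replicates 1, 2 and 3 lay above every control, and control replicate 2 alone lay within the carnitine range. The means were 6.54 ± 0.29 in control and 7.02 ± 0.32 in carnitine (± SD of 5 mice each), a 1.40-fold difference. The log2 difference was 0.48 (SE 0.16, 95% interval 0.13 to 0.83), with an exact two-sided permutation p of 0.0397 and a limma adjusted p of 0.71. The smallest exact p that 5 against 5 allows is 0.00794.

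Thbs2, its closest relative and also an inhibitor of vessel growth, did not share that difference. Control mice had 6.51, 6.79, 6.75, 6.55 and 6.99, and carnitine mice 6.71, 6.46, 7.05, 6.85 and 6.61. Both the lowest and the highest value belonged to carnitine mice. The difference was 0.02 (SE 0.12, exact permutation p = 0.88), and its 95% interval of -0.25 to 0.28 does not show that the diets were alike. Whether Thbs1 and Thbs2 differ in their response was not tested.

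Thbs4 encodes a pentameric thrombospondin of tendon, muscle and heart, found at muscle attachment sites. Control values were 7.76, 8.24, 8.46, 7.71 and 7.83, and carnitine values 8.70, 8.41, 8.94, 8.13 and 8.04. Carnitine replicates 1 and 3 lay above every control, while control replicates 2 and 3 reached into the carnitine range. The Thbs4 means were 8.0 ± 0.33 without and 8.44 ± 0.38 with carnitine (± SD of 5 mice each), a 1.36-fold difference. The log2 difference was 0.44 (SE 0.18, 95% interval 0.05 to 0.83), with an exact permutation p of 0.0952. After cyclic loess, which aligns the arrays along the intensity range, it was 0.35 with an unadjusted limma p of 0.0558.

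Thbs3, the other pentameric member here, had control values of 6.16, 6.45, 6.03, 6.39 and 6.55 and carnitine values of 6.65, 6.45, 6.64, 6.33 and 6.56. Carnitine replicates 1, 3 and 5 lay above every control, replicate 5 by 0.01. The difference of 0.21 (SE 0.11, 95% interval -0.03 to 0.45) had an unadjusted limma p of 0.0821 and an exact permutation p of 0.111. It was 0.26 with an unadjusted limma p of 0.0308 after median centring, which sets the arrays' medians equal. That centring moved the median difference of all genes from -0.008 to 0.042. Thbs3 stood 0.218 above the median of all genes with and without it.

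Comp, the remaining pentameric gene and a component of cartilage and tendon, had means of 5.97 ± 0.15 without and 6.15 ± 0.41 with carnitine (± SD of 5 mice each). Its difference of 0.18 (SE 0.16) had an unadjusted limma p of 0.293, and the carnitine mice spread from 5.78 to 6.85 around control values of 5.80 to 6.09. Without carnitine replicate 3, the highest, the difference was 0.004.

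Postn encodes periostin, a collagen-binding protein of fibroblasts that is made in tendon, bone surface and healing tissue. Control mice had 5.77, 6.56, 5.93, 5.76 and 5.64, and carnitine mice 6.61, 6.13, 6.22, 5.96 and 6.76. All carnitine mice lay above 4 of the controls, and control replicate 2 lay above 3 of the carnitine mice. The Postn means were 5.93 ± 0.37 without and 6.34 ± 0.34 with carnitine (± SD of 5 mice each), a 1.32-fold difference. The log2 difference was 0.40 (SE 0.18, 95% interval 0.01 to 0.79), and the exact permutation p was 0.103. Its probe set was dim, with a mean over all mice 0.34 above the array-wide median, and RMA draws differences together at such levels.

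Sparc encodes osteonectin, a collagen chaperone of the matrix, and Sparcl1 its relative hevin, abundant in vessels. Sparc control values were 8.91, 9.04, 9.02, 8.48 and 8.97, and carnitine values 9.26, 9.10, 9.13, 8.97 and 9.13. Carnitine replicates 1, 2, 3 and 5 lay above every control, and control replicate 4 lay far below all other mice. The Sparc means were 8.88 ± 0.23 without and 9.12 ± 0.10 with carnitine (± SD of 5 mice each), which differ by 0.23 (SE 0.11, exact permutation p = 0.0317). Without control replicate 4 the difference was 0.13, with an unadjusted limma p of 0.144. After cyclic loess it was 0.13 with an unadjusted limma p of 0.242.

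Sparcl1 had control values of 10.90, 10.62, 10.34, 10.62 and 10.25 and carnitine values of 10.94, 10.89, 10.85, 10.64 and 10.78. Carnitine replicate 1 alone lay above every control, and 4 of the 5 controls lay below every carnitine mouse. The means were 10.55 ± 0.26 and 10.82 ± 0.12 (± SD of 5 mice each), a 1.21-fold difference. The log2 difference was 0.27 (SE 0.11, 95% interval 0.03 to 0.52, exact permutation p = 0.0714), and it was 0.175 with an unadjusted limma p of 0.103 after cyclic loess.

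Tnc encodes tenascin C, a modulator of cell adhesion made in tendon and at muscle-tendon junctions. Control mice had 5.94, 6.04, 5.56, 5.66 and 6.08, and carnitine mice 5.93, 5.94, 6.14, 5.82 and 5.73. Carnitine replicate 3 alone lay above every control. The difference was 0.06 (SE 0.12, 95% interval -0.20 to 0.31, exact permutation p = 0.643), and this probe set was dimmer still, 0.09 above the array-wide median.

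**Figure D2:**
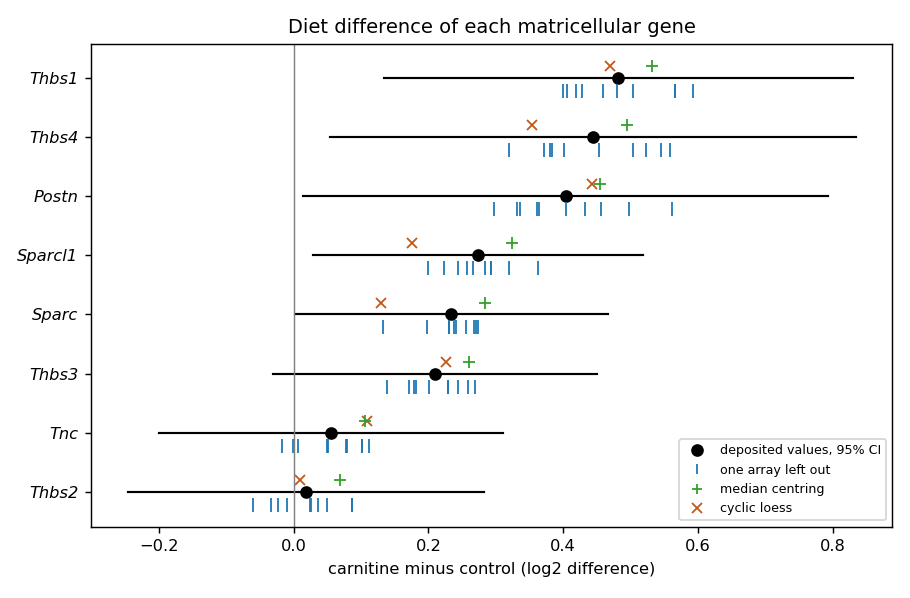
Log2 difference, carnitine minus control, of each measured gene (black point) with its 95% confidence interval, the 10 values with 1 array left out (blue ticks), and the value after median centring (green plus) and cyclic loess (orange cross). The intervals of Thbs1, Thbs4, Postn, Sparc and Sparcl1 lie above 0, that of Sparc starts at 0.001, and those of Thbs3, Tnc and Thbs2 include 0.

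The count of 5 members with an unadjusted p below 0.05 in limma depended on single arrays. It was 1 without carnitine replicate 1, 2 without carnitine replicate 3, control replicate 1 or control replicate 4, and 3 without carnitine replicate 2 or 5 or control replicate 3 or 5. Omitting control replicate 2 left it at 5 and omitting carnitine replicate 4 gave 6, cyclic loess gave 3, and Thbs1 was among the members below 0.05 in every one of these fits. Thbs4 was not below 0.05 without control replicate 1, 4 or 5 or carnitine replicate 1 or 3 (differences of 0.32 to 0.40). For Postn these were control replicates 1, 3, 4 and 5 and carnitine replicates 1 and 5 (0.30 to 0.40). For Sparc they were control replicates 1 and 4 and carnitine replicates 1, 2, 3 and 5 (0.13 to 0.24), and for Sparcl1 control replicates 3 and 5 and carnitine replicates 1, 2 and 3 (0.20 to 0.27). Thbs3 was below 0.05 without control replicate 5 (0.27) or carnitine replicate 4 (0.26).

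The mice did not differ evenly across the members. Carnitine replicate 3 was above the 10-mouse median in 8 of 8 members and was the highest mouse in 4 of them, namely Thbs1, Thbs2, Thbs4 and Tnc. Carnitine replicate 1 was the highest in Thbs3, Sparc and Sparcl1, and carnitine replicate 5 in Postn. Carnitine replicate 4 was low, with 1 of 8 members above the median and a mean deviation of -0.06. Among controls, replicate 2 had 6 of 8 members above the median and a mean deviation of 0.11, while replicate 4 had 0 of 8 and -0.27.

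**Figure D3:**
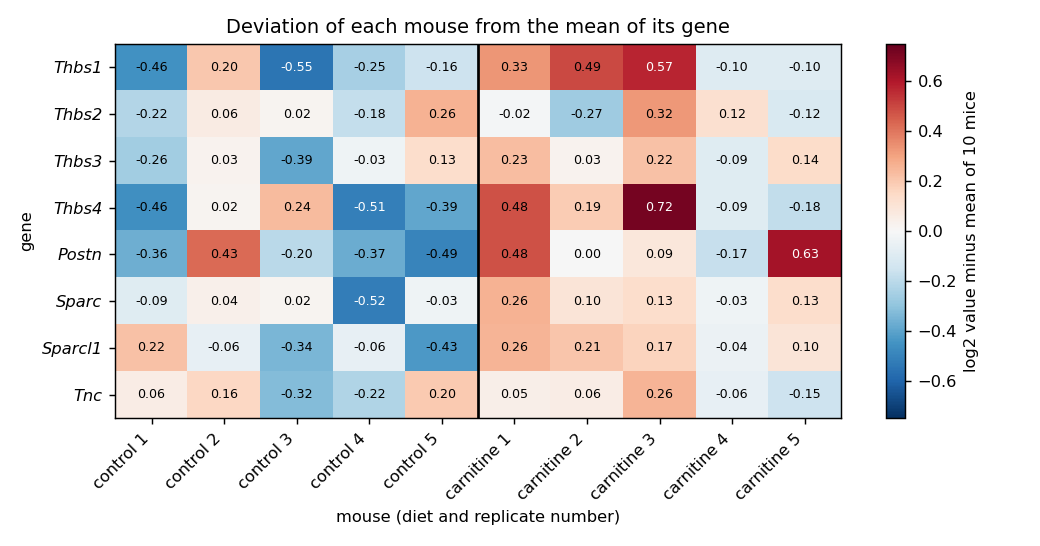
Log2 value of each mouse minus the mean of all 10 mice, for each measured gene (rows) and mouse (columns, controls left of the line), in log2 units, on a colour scale centred on 0 with the values printed. Carnitine 1 and 3 are mostly red and control 4 mostly blue, control 2 is red in Postn (0.43) and Thbs1 (0.20), and carnitine 4 is blue in all members except Thbs2.

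Members varied together in part. Of 28 pairs, 26 had a positive Pearson r over the 10 mice, with a median r of 0.38, and 23 were positive when each diet's mean was removed, with a median r of 0.24. Thbs1 and Thbs3 had r = 0.77 (permutation p = 0.009, adjusted over the 28 pairs 0.202) and Spearman's rho = 0.74 (permutation p = 0.0161, adjusted 0.113). Their r was 0.83 without the 2 mice farthest from the median of Thbs1 and 0.65 within the diets. Thbs4 and Sparc had r = 0.70 (permutation p = 0.0144, adjusted 0.202), and 0.55 within the diets. Postn and Sparc had r = 0.64 (permutation p = 0.0259, adjusted 0.233) and rho = 0.87 (permutation p = 0.00195, adjusted 0.0546). The r of Postn and Sparc was 0.51 without the 2 mice farthest in Postn and 0.48 within the diets. Thbs2 and Sparcl1 ran against each other with r = -0.43 (permutation p = 0.212, adjusted 0.424) and rho = -0.44 (permutation p = 0.199, adjusted 0.371), and r was -0.67 without the 2 mice farthest in Thbs2. No pair passed after adjustment, and all pairs share the same arrays.

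For each member, the genes whose deviations from the diet mean ran most closely with its own were read from the 11084 genes with a mean above the median gene level of 6.135, over the 10 arrays. They are the best of many genes over few arrays, and r is a description only. For Thbs1 they were Hspa1b (r = 0.97), which encodes an inducible HSP70, its co-chaperone gene Dnajb1 (r = 0.97) and Mettl8 (r = 0.94). Hspa1b spread widely within both diets. Its control values were 6.42, 8.85, 6.49, 7.82 and 8.16, and its carnitine values 8.40, 8.84, 8.95, 6.98 and 6.95. Hspa1b differed by 0.48 between the diets (SE 0.49) with an unadjusted limma p of 0.349, and its near-identical copy Hspa1a may share its probes. The part of this variation in the Thbs1 difference was not tested.

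**Figure D4:**
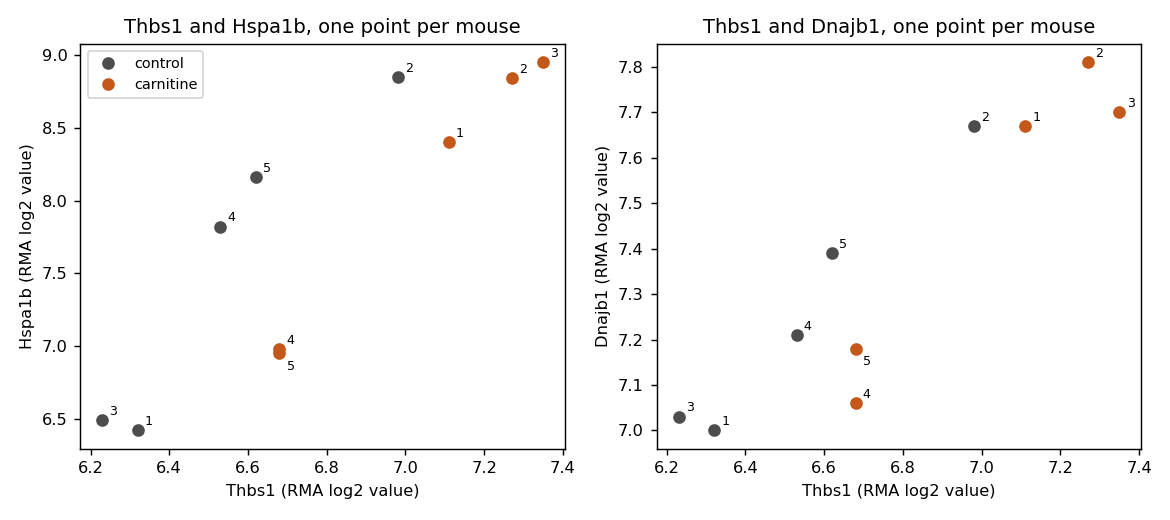
RMA log2 values of Hspa1b (left) and Dnajb1 (right) against Thbs1, 1 point per mouse, numbered by replicate (grey control, orange carnitine). In both panels control 1 and 3 lie at the bottom left, and control 2 and carnitine 1, 2 and 3 at the top right, with Thbs1 from 6.98 to 7.35.

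The closest gene of each other member had r from 0.91 to 0.97. These genes were Rab20 for Thbs2 (0.94), Syn3 for Thbs3 (0.93), Gpr157 for Thbs4 (0.92), Zfp942 for Postn (0.97), the neonatal Fc receptor gene Fcgrt for Sparc (0.96), Lrrfip2 for Sparcl1 (0.97) and Coa5 for Tnc (0.91). No gene was among the closest 3 of more than 1 member.

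Other matricellular genes were split evenly. Of 22 measured, 11 had a positive and 11 a negative difference, with a median of 0.01 against -0.01 over all genes. After median centring 16 were positive, as were 61.96% of all genes. At an unadjusted limma p below 0.05 there was 1 higher and 1 lower gene, against 3.14% and 3.83% of all genes, and 0 passed the adjusted threshold. The higher gene was Ccn2 (connective tissue growth factor), a target of TGF-beta and of mechanical load. Its values were 7.12, 7.47, 7.15, 7.09 and 7.18 in control and 7.46, 7.50, 8.0, 7.23 and 7.37 in carnitine, a difference of 0.31 (SE 0.13). Control replicate 2 was again the highest control and carnitine replicate 3 the highest of all mice. The lower gene was Smoc1, of the SPARC family, at -0.23 (SE 0.096). Ccn1, the relative of Ccn2, stood at -0.21 (SE 0.16, unadjusted p 0.189), and Tgfbi, a collagen-binding relative of periostin, at 0.28 (SE 0.13, unadjusted p 0.0542).

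Among 19 receptor genes of these proteins, 15 had a positive difference, 10 after cyclic loess, with a median of 0.08. The shares of all genes were 47.5% (62.5% of the brighter genes) and 50.66% after cyclic loess. Itga4, an integrin subunit of white blood cells that binds osteopontin and fibronectin, was the 1 gene with an unadjusted limma p below 0.05 (0.43, SE 0.17). Such a p was found on the higher side in 3.14% of all genes, and 0 of the 19 passed the adjusted threshold. Cd44, a receptor of osteopontin and hyaluronan, stood at 0.22 (SE 0.10, unadjusted p 0.0535) with a mean below the median probe set level. The thrombospondin receptor genes differed by -0.16 in Cd36 (SE 0.16) and 0.06 in Cd47 (SE 0.11), the latter negative after cyclic loess and without control replicate 5. Itgav and Itgb3, whose products pair as a receptor of many members, differed by 0.12 (SE 0.091) and 0.07 (SE 0.092).

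Of 17 genes of the TGF-beta axis, 12 had a positive difference, 9 after cyclic loess, with a median of 0.08. Among all genes 47.5% (62.5% of the brighter genes) were positive, and 50.66% after cyclic loess. Ltbp4, which holds latent TGF-beta in the matrix, stood at 0.29 (SE 0.12) and Ltbp2, which does not bind it, at -0.23 (SE 0.098). Both had an unadjusted limma p below 0.05, as did 3.14% of all genes on the higher and 3.83% on the lower side. Tgfb1 differed by 0.15 (SE 0.13), and 0 of the 17 passed the adjusted threshold.

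Of 20 genes of collagens, fibronectin and collagen maturation, partners of Sparc and periostin, 17 had a positive difference, 12 after cyclic loess. Of all genes 47.5% (62.5% of the brighter genes) were positive, and 50.66% after cyclic loess. The 20 genes had a median of 0.09, and 0 had an unadjusted limma p below 0.05. Col1a1 differed by 0.19 (SE 0.14), Fn1 by 0.28 (SE 0.24), the cross-linking enzyme gene Lox by 0.30 (SE 0.18) and Col3a1 by 0.09 (SE 0.14, negative without carnitine replicate 1). Of 14 genes of matrix proteases and their inhibitors, 6 were positive and 8 negative, and 0 had an unadjusted limma p below 0.05. Their median was -0.01, and 0.04 once arrays were centred on their medians. The median of all genes was 0.04 after that centring as well. Mmp2 stood at 0.24 (SE 0.14).

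**Figure D5:**
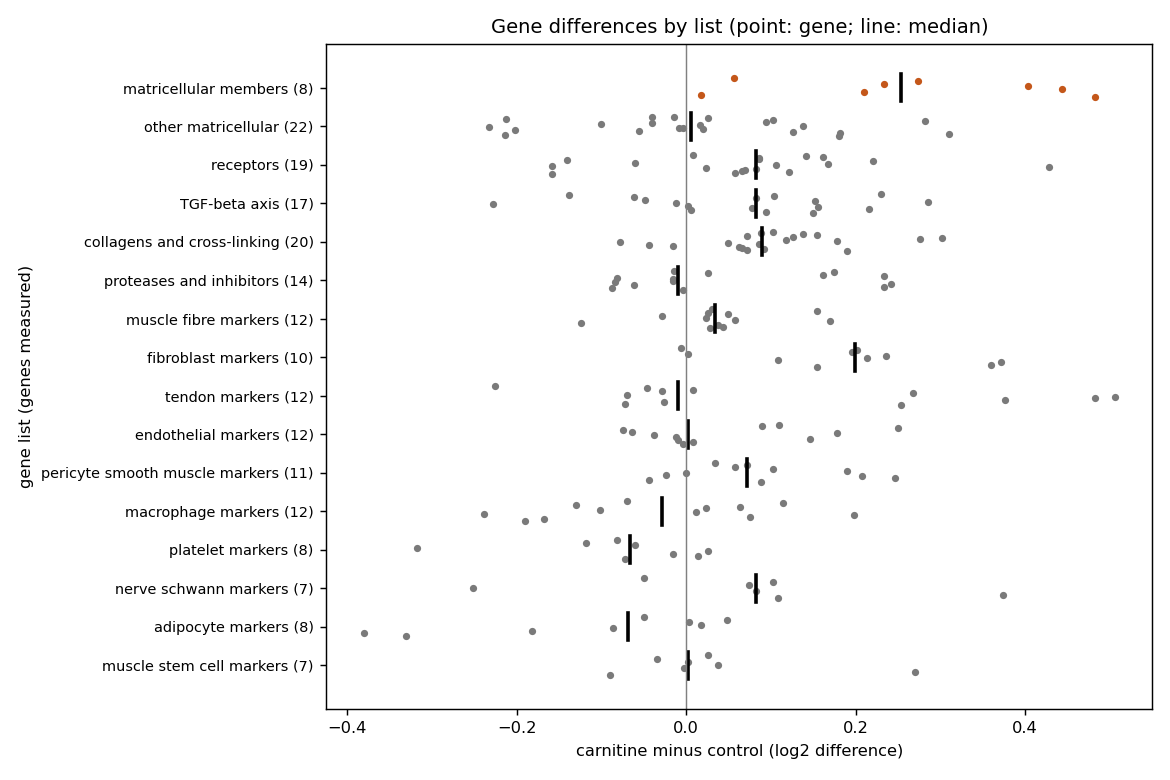
Log2 difference, carnitine minus control, of each gene (point) by gene list, with the number of genes measured in brackets and the median as a black line; members in orange. The members lie between 0.02 and 0.48 with a median of 0.25, the fibroblast markers have a median of 0.20, and the medians of the other lists lie between -0.07 and 0.09.

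Markers of the cells that make these proteins were read beside them, with the lists free of the members. Fibroblast markers were positive in 9 of 10 genes, against 47.5% of all genes and 62.5% of the brighter genes. Lum stood at 0.37 (SE 0.23) and Dcn at 0.36 (SE 0.22), and 0 of the 10 had an unadjusted limma p below 0.05. The median difference of the 10 was 0.20. The median was 0.12 after cyclic loess, 0.13 without control replicate 1, 0.10 without control replicate 4 and 0.09 without carnitine replicate 1. Control replicate 4, the lowest mouse in Sparc, was also the lowest control in Lum and Dcn, which stood at 0.16 and 0.14 without it. Their summed linear signal ran from 2609 to 5490 in control and from 4252 to 5719 in carnitine mice, and none of the 10 had a mean as dim as the array-wide median. Tendon and cartilage markers were positive in 6 of 12, with a median of -0.01. After cyclic loess or median centring 9 of 12 were positive, against 50.66% and 61.96% of all genes. Chad stood at 0.48 (SE 0.20) and Fmod at 0.38 (SE 0.17), while Egr1 stood at -0.23 (SE 0.26) and the tendon factor gene Scx at -0.07 (SE 0.097). Chad and Fmod had an unadjusted limma p below 0.05, as did 3.14% of all genes on the higher side. The summed signal of the list ran from 1096 to 1486 in control and from 1107 to 1587 in carnitine mice, and Tnmd, Mkx, Kera, Acan and Col11a1 were no brighter than the array-wide median. The part of these cells in the members' differences was not tested.

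Endothelial markers were positive in 6 of 12 (summed signal 2399 to 4216 in control and 2881 to 3980 in carnitine). Pericyte and smooth muscle markers were positive in 8 of 11, and 6 of 11 after cyclic loess (7132 to 8333 and 7327 to 8318). Platelet genes, which mark a blood source of Thbs1, were positive in 2 of 8 (408 to 535 and 390 to 452). Of these, Pf4, Ppbp, Gp5, Gp6 and Clec1b were no brighter than the array-wide median, and Gp9, Itga2b and Treml1 were brighter. Macrophage markers were positive in 6 of 12 (893 to 1253 and 912 to 1133), with Adgre1 and Itgam likewise dim. Schwann cell and nerve markers were positive in 5 of 7 (559 to 713 and 637 to 1046, with medians of 614 and 642). Pmp22 stood at 9.25 in carnitine replicate 5 and at 8.11 to 8.26 in the other carnitine mice, and Sox10 differed by -0.25 (SE 0.12). Adipocyte markers were positive in 3 of 8 (1944 to 2437 and 1949 to 2373). Fabp4, the brightest of them with a mean of 10.71, differed by 0.004, while Adipoq differed by -0.33 (SE 0.16) and Plin1 by -0.18 (SE 0.14). Muscle stem cell markers were positive in 4 of 7 (715 to 989 and 757 to 841) and muscle fibre markers in 10 of 12, or 2 of 12 after cyclic loess (109329 to 115152 and 110644 to 116431). Over all genes 47.5% were positive, and 50.66% after cyclic loess. In these lists the genes with an unadjusted limma p below 0.05 were Gp6 of platelets (-0.32, SE 0.14), Cd163 of macrophages (-0.24, SE 0.11), Retn of adipocytes (-0.38, SE 0.15), Myf5 of muscle stem cells (0.27, SE 0.12) and Mylpf of muscle fibres (0.17, SE 0.071). Of all genes, 3.14% had such a p on the higher and 3.83% on the lower side. None of the genes in the lists passed the adjusted threshold in limma. Among the other genes named above with an unadjusted p below 0.05, Itga4 kept it in 9 of the 10 fits with an array left out, Chad and Retn in 6, Ccn2, Smoc1, Ltbp4, Gp6 and Mylpf in 5, Ltbp2 in 4 and Fmod, Cd163 and Myf5 in 3, with no change of sign.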

How the data were processed

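Values for 34390 probe sets on 10 arrays were deposited by the authors on the log2 scale. RMA and Affymetrix Expression Console are named in the submitters' processing notes; no version or genome build is given in the sources used. RMA corrects background, normalises between arrays and summarises probes. Of the probe sets, 23521 have 1 gene symbol in the platform annotation, 1814 several and 9055 none listed. The brightest probe set per gene was kept (22180 genes), and none was removed for a dim signal.

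Diets were compared with limma 3.58.1 in R 4.3.3 (lmFit, eBayes with a variance trend, two-sided, Benjamini-Hochberg adjustment over all 22180 genes), after the fit was tested on simulated data. Single members were also tested by exact permutation over all 252 assignments of arrays, and member pairs with 100000 resamples. The number of arrays limits the precision. Members, gene lists and tests were chosen with earlier results of these data known. The genes to name were the members, up to 3 per list with the smallest p, 12 measured set genes and the 3 closest to each member; the text gives a part of these, picked with the values in view. Alternatives left out each array, weighted arrays, re-scaled them (median centring, cyclic loess), added a replicate block, dropped dim genes, or changed the variance model, the choice of probe set or the threshold.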

Additional observations from a re-analysis of the deposited data

Results flagged for a closer look

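In Sparc, control replicate 4 had a log2 value of 8.48, while the next control stood at 8.91, so the gap took 0.768 of the control group's range, above Dixon's 95% critical value for 5 samples. It was the 1 mouse marked in 16 groups of 5 mice (8 genes in 2 diets), and chance marks about 1 in 20 groups.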

How the results depend on the processing

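Of 152 values of the 8 members under the alternatives, 109 kept their direction and their side of an unadjusted p of 0.05 in limma, 32 kept the direction and lost that p, 5 kept it and reached that p, and 6 turned sign. Thbs1 had 0.40 to 0.59 and kept an unadjusted p below 0.05 in all 19 of its alternatives. With each array left out in turn, Thbs2 ran from -0.0605 to 0.087 and Tnc from -0.018 to 0.112, and these are the members whose sign turned; the cause was not tested. The count of members with an unadjusted p below 0.05 ran from 1 to 6 with an array left out, and it was 3 after cyclic loess and 0 at an unadjusted p below 0.01. The count of genes past the adjusted threshold ran from 0 to 1 with an array left out, and the 1 gene, found without control replicate 2, is no member. The lowest adjusted p of a member was 0.36. With the replicate number as a block, 4 members had an unadjusted p below 0.05, and Postn, at 0.40, had 0.0537. Arrays of the same number had deviations that correlated between -0.13 and 0.24 across genes, 2 of 10 arrays correlated best with their own number, and the numbers were not taken to pair the mice. The members' median ran from 0.20 to 0.30. Postn and Tnc lie near the median probe set level, where RMA draws differences together.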
